A study of Mus musculus with 16 samples.

Results

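Fatty acid and triglyceride synthesis in the mouse mammary gland was followed through 38 genes, taken by name from a list of enzymes, carriers and regulators of the pathway. They were found by symbol among the 22196 genes to which the transcripts of the series could be assigned, and all 38 had a match. The label of the list holds for what was measured: 36 of the 38 genes had enough reads to be tested, and the genes of milk fat synthesis were among the abundant ones.

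RNA was sequenced from whole inguinal mammary glands in 16 libraries, in mid-lactation according to the series title, with an age label of postnatal day 16. The groups, of 4 libraries each, crossed diet with treatment: NCD control, NCD metformin, HFD control and HFD metformin. HFD is a high fat diet given in lactation, NCD is not spelled out by the labels, and metformin is a glucose-lowering drug. The labels give no strain, dose, route or duration, and nothing shared by all groups beyond tissue and age. No label says whether a gland stands for a separate animal, so p-values here measure the spread between these libraries, which may be technical. Libraries were numbered within a group in accession order, which pairs nothing.

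The lactating gland is one of the most active sites of fatty acid synthesis in the body. Citrate leaves the mitochondria, is split to acetyl-CoA, and is carboxylated and condensed by fatty acid synthase, and in milk-making epithelium a second thioesterase ends the chain early to give medium-chain fatty acids. Elongases and desaturases modify the chains, acyl-CoA synthetases activate them, and a series of acyltransferases and a phosphatase attach them to glycerol, ending in the triglyceride of the milk fat droplet. SREBP-1 and ChREBP are the transcription factors best known for switching these genes on with insulin and sugar.

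Totals ranged from 8649318 to 39156650 estimated counts per library with a median of 28944281, the shallowest being HFD control 4 and HFD metformin 1. Genes of 8 milk proteins took between 58.0 and 66.9% of the counts of a library. Of 12 adipocyte markers 10 had a count in every library, so fat cells were part of the tissue; Plin4 and Nrg4 were at 0 in 3 libraries each. Their summed level was 181, 222, 1210 and 243 CPM in NCD control 1 to 4, 396 to 944 CPM in NCD metformin, 242 to 415 CPM in HFD control and 264 to 685 CPM in HFD metformin. CPM is a count scaled to the size of its library, corrected by the trimmed mean of M-values (TMM). NCD control 3 stood apart, with the highest adipocyte sum and a sum of 8 skeletal muscle markers of 1604 CPM, against at most 17.9 CPM in the other NCD libraries. In such whole tissue, fewer cells of a type and less RNA per cell cannot be told apart.

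Among the genes 4 rose with metformin on NCD, and the 250 bases before their start are shown so that these promoters can be compared. The sequences are RefSeq's for the build GRCm38.p6, read 5′ to 3′ on the strand of the gene. Capitals mark matches on either strand to known promoter motifs. The CCAAT box was searched by the letters of its name, while the letters searched for the GC box were GGGCGG in every promoter. The letters searched for the E-box were CACGTG throughout. In Elovl1 a GC box and the CCAAT box overlap by 2 bases, and the first of its 2 listed starts is used.
Slc25a1 (chr16:17928220-17928469, minus strand): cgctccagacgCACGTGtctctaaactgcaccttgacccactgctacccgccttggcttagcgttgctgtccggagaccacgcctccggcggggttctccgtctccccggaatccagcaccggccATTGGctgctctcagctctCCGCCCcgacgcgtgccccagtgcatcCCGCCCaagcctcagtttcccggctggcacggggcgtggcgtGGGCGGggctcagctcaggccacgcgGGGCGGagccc
Acly (chr11:100528001-100528250, minus strand): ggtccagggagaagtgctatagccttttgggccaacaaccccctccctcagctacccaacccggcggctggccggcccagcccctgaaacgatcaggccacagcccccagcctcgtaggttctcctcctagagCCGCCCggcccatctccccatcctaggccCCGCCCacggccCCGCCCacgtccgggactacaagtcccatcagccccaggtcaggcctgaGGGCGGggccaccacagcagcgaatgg
Elovl1 (chr4:118427843-118428092, plus strand): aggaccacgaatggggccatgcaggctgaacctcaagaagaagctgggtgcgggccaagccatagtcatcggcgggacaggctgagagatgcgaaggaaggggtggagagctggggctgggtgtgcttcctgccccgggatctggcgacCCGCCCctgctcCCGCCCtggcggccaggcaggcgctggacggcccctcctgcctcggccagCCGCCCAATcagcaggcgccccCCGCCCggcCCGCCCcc
Mid1ip1 (chrX:10717115-10717364, plus strand): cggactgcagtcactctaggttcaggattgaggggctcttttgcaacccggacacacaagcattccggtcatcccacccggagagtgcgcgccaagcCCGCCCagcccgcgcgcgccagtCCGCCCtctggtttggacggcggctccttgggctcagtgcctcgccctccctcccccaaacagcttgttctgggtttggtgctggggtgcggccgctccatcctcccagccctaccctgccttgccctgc

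All 4 windows hold GC boxes: 4 in Slc25a1, 4 in Acly, 5 in Elovl1 and 2 in Mid1ip1. Slc25a1 and Elovl1 also hold 1 CCAAT box each, and Slc25a1 holds 1 E-box. Of the 38 genes 31 had at least 1 start in the RefSeq table, 42 starts in all. A GC box was found in 59.5% of these 42 windows and in 32.7% of the 32851 windows of all genes. The CCAAT box was in 42.9% against 33.8%, and the E-box in 9.52% against 6.02%. A sterol response element, searched as TCACNCCAC on both strands, was in 4.76% against 1.05%, in the windows of Acsl1 and Mlxipl. These are matches of letters only, and no test was made of the shares. Fads1, Dgat2, Scd1, Gpat4, Elovl3, Scd2 and Dgat1 were not in the table.

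Levels differed over about 5 orders of magnitude between the genes when set per coding length, as TPM, a count divided by length and scaled to a fixed sum in each library. Thrsp had the highest mean over the 16 libraries, 1464 TPM, and Olah followed with 764 TPM. Thrsp encodes Spot 14, an acidic partner of lipid synthesis, and Olah the thioesterase that releases medium-chain fatty acids in the gland. Then came Fasn at 189 TPM, Elovl5 at 135, Scd1 at 121, Me1 and Acsl1 at 118 each and Acly at 101. At the other end Elovl3, an elongase of brown fat and skin, had 14 counts over all libraries and Elovl4, an elongase of very long chains, 46. These 2 were not tested.

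**Figure D1:**
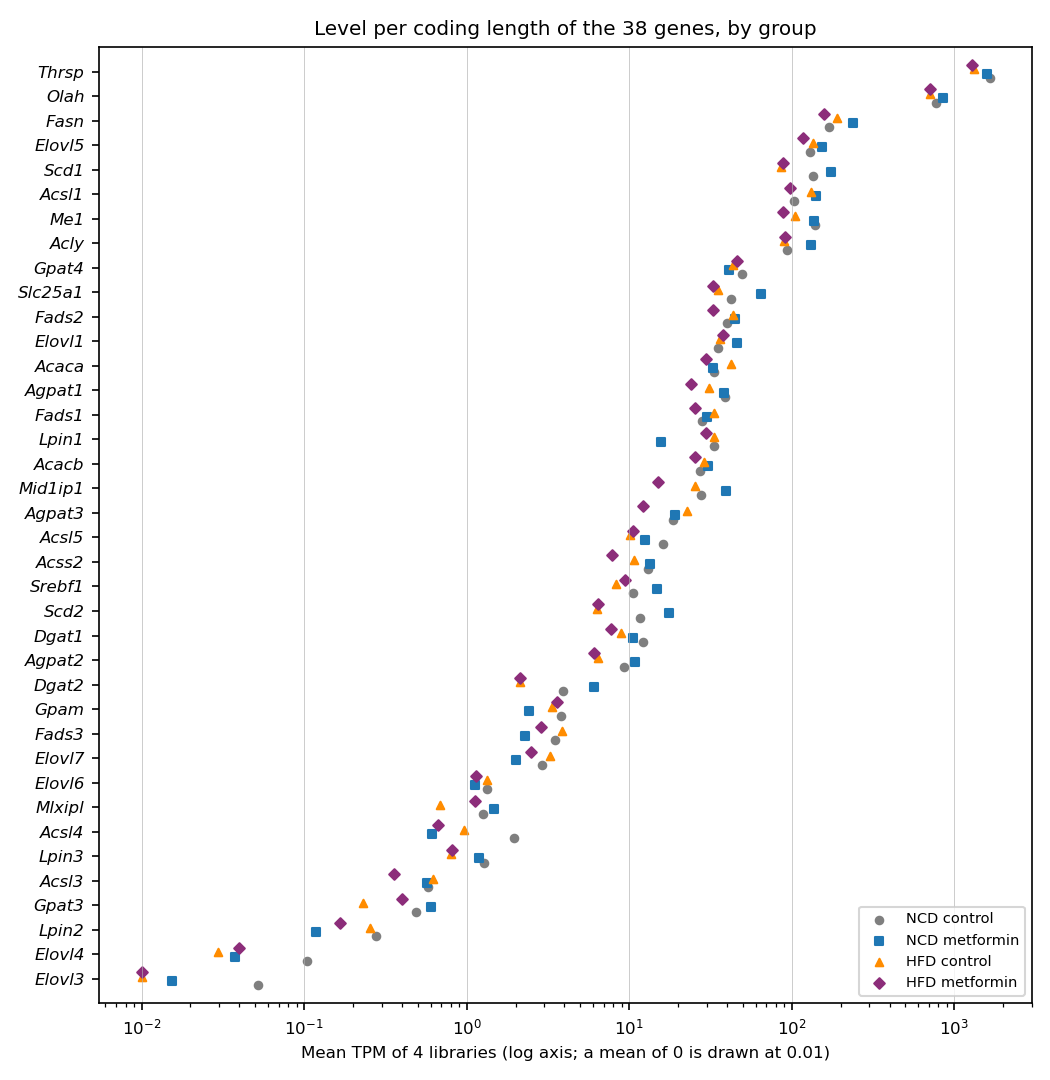
Mean TPM of 4 libraries for each of the 38 genes, 1 row a gene and 1 symbol a group, on a log axis on which a mean of 0 is drawn at 0.01. Thrsp and Olah lie to the right of all others in every group, and Elovl3 and Elovl4 lie at the left end.

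Within most enzyme families 1 gene held the bulk of the summed TPM. Gpat4 held 89.3 to 95.3% of the 3 glycerol-3-phosphate acyltransferases, Lpin1 89.1 to 98.6% of the lipins, Scd1 87.0 to 96.9% of the pair of stearoyl-CoA desaturases, and Acsl1 78.5 to 94.6% of the 4 long-chain acyl-CoA synthetases. Among the elongases Elovl5 held 67.4 to 82.1% and Elovl1 16.7 to 30.5%. No such leader was seen in the acetyl-CoA carboxylases, where Acaca took 34.6 to 66.6% and Acacb the rest. The full-length model of Acaca held 65.7 to 87.7% of its TPM and short fragment models the rest, which leaves this split uncertain. Other families also had closer splits. Fads2 held 50.6 to 61.3% and Fads1 35.9 to 45.2% of the fatty acid desaturases. Agpat1 held 45.9 to 71.2% of the lysophosphatidate acyltransferases, and Dgat1 55.1 to 93.6% of the diacylglycerol acyltransferases. Scd1 and Scd2 are close copies and can share reads, so their split is uncertain. Together the 38 genes took 1.08 ± 0.151% of the counts in NCD control and 1.39 ± 0.187% in NCD metformin, against 1.13 ± 0.131% in HFD control and 1.01 ± 0.147% in HFD metformin libraries (SD, n = 4).

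Metformin was first compared with control on NCD. Of the genes 4 rose: Slc25a1, Acly, Mid1ip1 and Elovl1, which export citrate, split it, aid acetyl-CoA carboxylase and elongate saturated chains. Acsl4, a synthetase that prefers arachidonic acid, and Agpat3, a lysophosphatidate acyltransferase, fell. These 6 of 36 tested genes, 16.7%, were called by edgeR's quasi-likelihood test at an adjusted p under 0.05, against 10% of all 12506 genes. Higher calls made up 4 of the 36, with a background of 4.01%, and lower calls 2, with a background of 6.03%. The median log2 fold change was 0.27 over the 36 genes and -0.00 over all genes, and it was above 0 for 26 of the 36, or 72.2%, against 49.7% of all genes. Groups did not overlap for 8 genes, or 22.2%, against 18.6% of all genes, the 2 beyond the calls being Scd1 (higher) and Gpam (lower).
Of the 16 libraries several decided this count: it was 2 without NCD control 1, 1 without NCD metformin 2 and 3 without NCD metformin 3. The calls over all genes fell as well, from 1255 of 12506 to 384 of 12613, 180 of 12627 and 511 of 12692. All 8 skeletal muscle markers were called lower in the same comparison, although the groups overlapped for each of them. Their sum reached 1604 CPM in NCD control 3 alone, and no other NCD library exceeded 17.9 CPM. Of 11 tested adipocyte markers none was called, though 10 had a positive log2 fold change, with a median of 0.47. The part of these tissues in the calls was not tested.

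On HFD the same comparison called none of the 36 genes with edgeR, against 0.168% of all genes. Their median log2 fold change was 0.03, with 20 of 36 above 0 (50.5% of all genes). At an unadjusted p under 0.05 stood 2 of the 36 (5.56%), against 12.8% of all genes. Groups did not overlap for 2 genes, Acss2 and Agpat3, both lower with metformin, while 6.65% of all genes had no overlap. DESeq2's Wald test called 1, Agpat3, at a log2 fold change of -0.69 and an adjusted p of 0.0387. Over all genes DESeq2 called 183 of 22196, against 21 of 12506 by edgeR.

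Diet without metformin also gave 0 calls among the 36 genes with edgeR, against 0.064% of all genes. The median log2 fold change was 0.01, 19 of 36 were above 0 (50.5% of all genes were), and no gene had groups without overlap (4.12% of all genes did). At an unadjusted p under 0.05 stood 7 of the 36, or 19.4%, against 7.04% of all genes. DESeq2 called 0 of the genes, and 59 of 22196 over all genes. The lowest adjusted p was 0.38.

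With metformin in both groups, HFD libraries were lower than NCD libraries in 4 of the 36 genes: Slc25a1, Acss2, which makes acetyl-CoA from acetate, Me1, the cytosolic malic enzyme that yields NADPH, and Mid1ip1. None was called higher. The 4 calls, 11.1% of those tested, stand against 2.36% of all genes in either direction and 0.504% called lower (edgeR). The median log2 fold change was -0.26 over the 36 genes and -0.00 over all genes, with 9 of 36 above 0 against 49.5% of all genes. Groups did not overlap for 10 genes, 8 lower and 2 higher, or 27.8% against 10.2% of all genes. Beside the calls these were Acly, Scd1, Scd2 and Dgat1, lower, and Elovl7 and Lpin2, higher.
The count was 0 without HFD metformin 1, HFD metformin 2, NCD metformin 2 or NCD metformin 3. In these fits all genes had 5, 3, 4 and 5 calls, against 295 of 12506 in the main fit. The count was 1 without HFD metformin 4 (97 calls over all genes). It was 2 without NCD control 2, NCD metformin 1 or HFD control 3 (116, 177 and 107 calls over all genes). This comparison and that of metformin on NCD share the 4 NCD metformin libraries, so their calls are not independent of each other.

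No gene was called for an interaction, the difference between the metformin effects on the 2 diets, among the 36 or among all 12506 (0% of all genes, edgeR). A difference between diets in the response is therefore not shown by this test. DESeq2 called 0 of the 36, and 18 of 22196 over all genes. At an unadjusted p under 0.05 by edgeR stood 10 of the 36, or 27.8%, against 9.94% of all genes. For 7 of the 10 the metformin effect was lower on HFD than on NCD, as for Mid1ip1 with a log2 difference of -0.83 ± 0.26 (SE) and an adjusted p of 0.369 by edgeR, and for 3 it was higher. The median difference was -0.31 over the 36 genes and 0.01 over all genes.

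Averaged over diets, metformin raised Acly, Slc25a1 and Elovl1 and lowered Acsl4 and Agpat3, 5 of 36 genes or 13.9% against 11.4% of all genes (edgeR). Agpat3 was the gene whose 8 metformin and 8 control libraries did not overlap. The share of all genes without such overlap was not computed. The count of calls was 2 without NCD metformin 2 or without HFD control 3 (711 and 824 calls over all genes, against 1424 in the main fit). It was 3 without NCD control 1, HFD metformin 3 or HFD metformin 4 (837, 793 and 1424 calls over all genes). Averaged over treatments, HFD lowered 1 gene, Me1 (2.78% against 0.936% of all genes, edgeR). DESeq2 called 6 there, and 461 of 22196 over all genes. The edgeR count was 0 without 11 of the 16 libraries in turn, with 28 to 99 calls over all genes, against 117 in the main fit. It was 2 without NCD metformin 4, 3 without HFD control 1 and 4 without NCD control 1 (180, 115 and 100 calls over all genes). The 36 genes had a median log2 fold change of -0.10 for diet and 0.07 for metformin in these averaged effects.

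**Figure D2:**
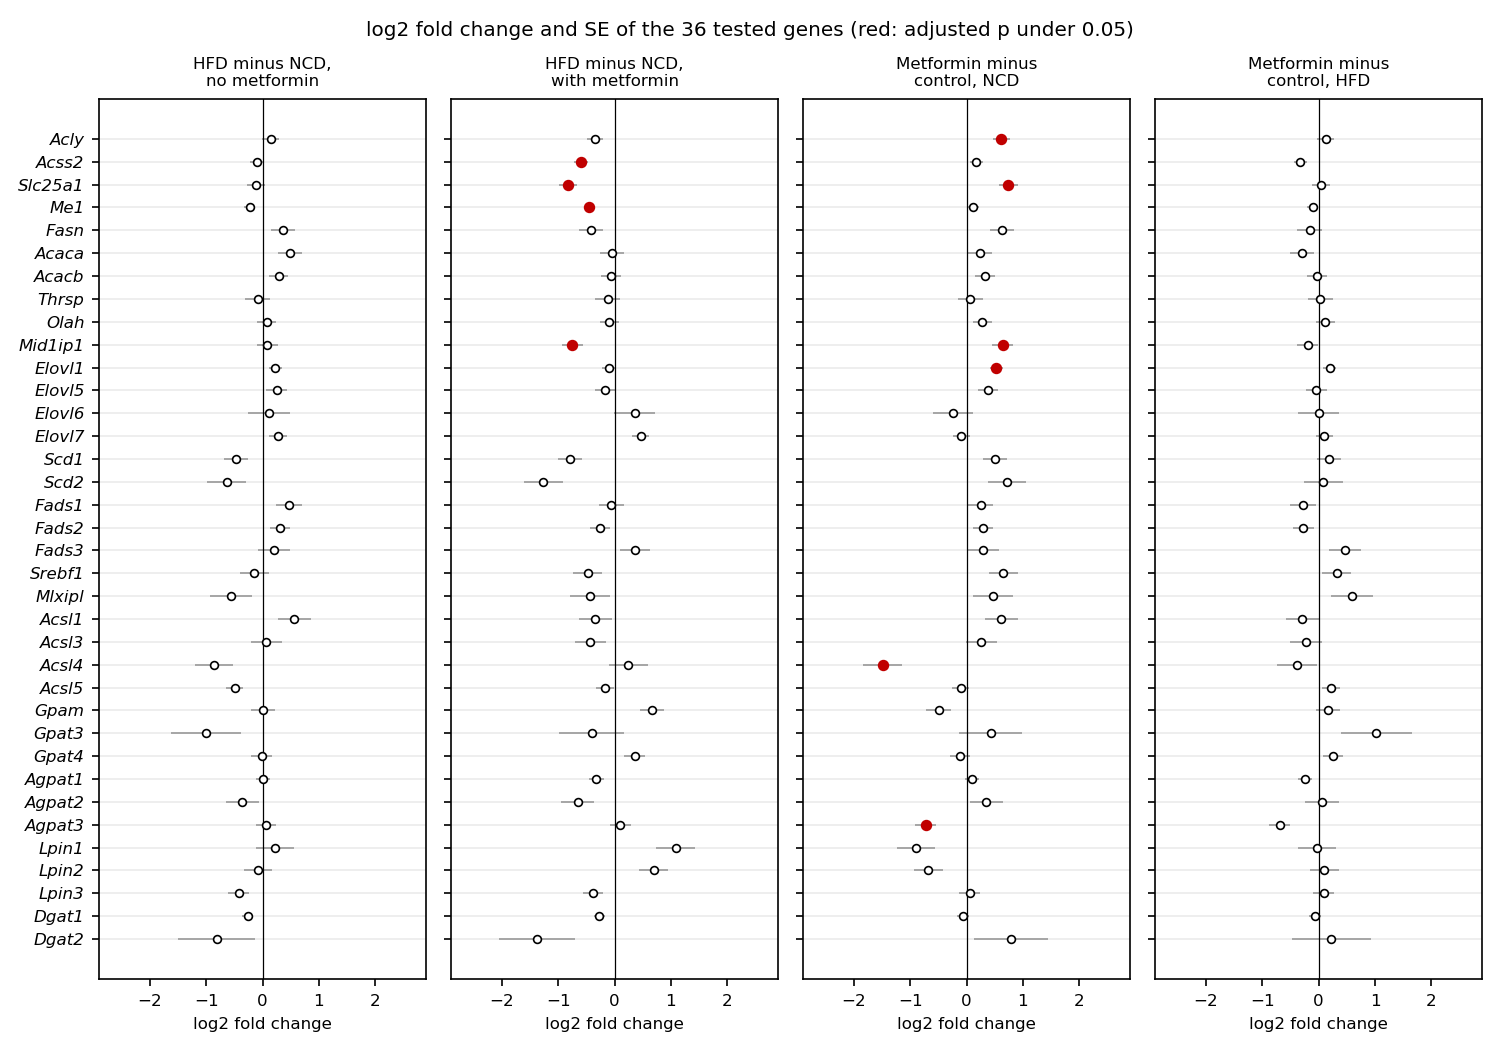
log2 fold change (points) and standard error (bars) of the 36 tested genes in the 4 comparisons of 2 groups, with red points for an adjusted p under 0.05 by edgeR. Red points are seen in the comparison of diets with metformin, where all 4 are negative, and of metformin on NCD, where 4 are positive and 2 negative.

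Carbon supply comes first in the pathway. Slc25a1, the mitochondrial citrate carrier, stood at 55.7, 71.2, 88.6 and 77.9 CPM in NCD control 1 to 4 and at 114, 154, 126 and 96.9 CPM in NCD metformin 1 to 4. In HFD control 1 to 4 it was at 80.8, 68.7, 62.2 and 58.2 CPM, and in HFD metformin 1 to 4 at 66.2, 57.8, 81.3 and 72.2 CPM. The 4 NCD metformin libraries were the 4 highest of the 16, and the other groups overlapped. Metformin on NCD raised Slc25a1 by 0.74 ± 0.16 on the log2 scale (SE, adjusted p = 0.0171, edgeR), and within metformin HFD lowered it, with a log2 fold change of -0.82 ± 0.16 (adjusted p = 0.0322). On HFD the metformin value was 0.04. The NCD call ended in 1 of 24 alternatives, without NCD metformin 2, at an adjusted p of 0.0603 (edgeR). The call within metformin was lost in 4 of 24 alternatives and the call for metformin averaged over diets in 11 of 23.

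Acly, ATP citrate lyase, splits the exported citrate to cytosolic acetyl-CoA. It was at 684, 864, 718 and 964 CPM in NCD control and at 1464, 1274, 1163 and 1059 CPM in NCD metformin, without overlap. HFD control libraries had 1138, 873, 725 and 833 CPM and HFD metformin libraries 945, 841, 1054 and 1054 CPM, which overlapped. The log2 fold change for metformin on NCD was 0.62 ± 0.15 (SE, adjusted p = 0.0211, edgeR), against 0.13 on HFD. That call was lost without NCD control 1 or NCD metformin 2, with adjusted p over the alternatives from 0.00134 to 0.0647 (edgeR). The Acly call for metformin averaged over diets was lost in 9 of 23 alternatives.

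Acss2, cytosolic acetyl-CoA synthetase, had 56.0, 63.6, 77.2 and 73.0 CPM in NCD control, against 66.3, 74.3, 77.3 and 86.3 CPM in NCD metformin. On HFD, controls had 73.1, 59.6, 66.0 and 53.4 CPM and metformin libraries 52.5, 49.3, 52.8 and 47.2 CPM. The HFD metformin group lay below all other libraries. Its log2 fold change against NCD metformin was -0.59 ± 0.12 (SE, adjusted p = 0.0322, edgeR), lost in 5 of 24 alternatives, each without 1 NCD metformin or HFD metformin library.

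Me1 had 498, 520, 592 and 597 CPM in NCD control, against 606, 660, 586 and 533 CPM in NCD metformin. On HFD it had 540, 420, 445 and 481 CPM in control and 405, 418, 473 and 455 CPM in metformin libraries. The HFD metformin libraries were all below the NCD metformin ones, while HFD control and NCD control overlapped through HFD control 1. The log2 fold change of diet was -0.45 ± 0.10 with metformin (SE, adjusted p = 0.0388, edgeR) and -0.34 ± 0.07 averaged over treatments (adjusted p = 0.0411). These calls ended in 11 of 24 and 15 of 23 alternatives, with values from -0.62 to -0.40 and from -0.50 to -0.31, so the direction held and the call did not.

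**Figure D3:**
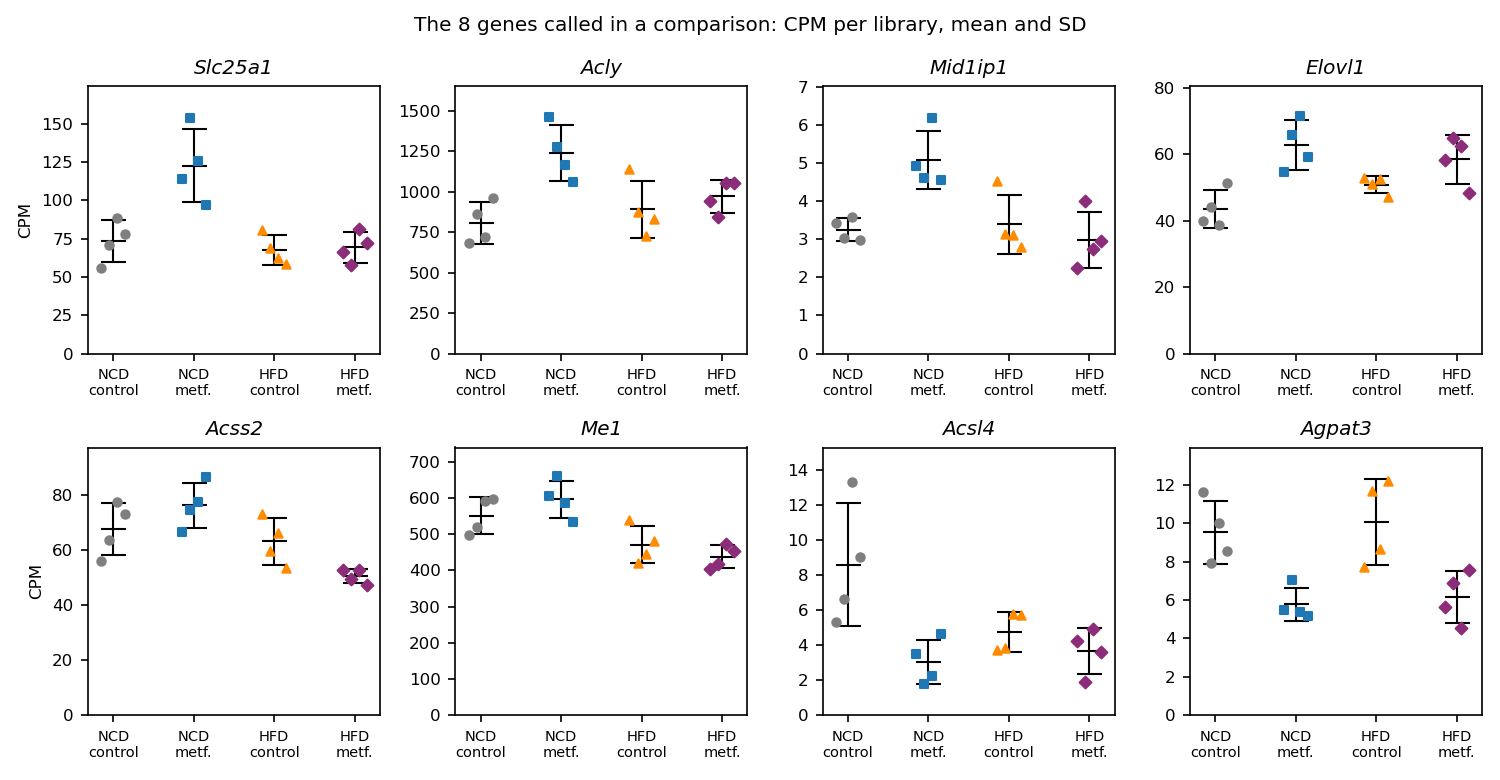
CPM per library (points) with the mean and SD of each group of 4 (bars) for the 8 genes called in a comparison, each axis starting at 0. NCD metformin libraries are above NCD control libraries for Slc25a1, Acly, Mid1ip1 and Elovl1 and below them for Acsl4 and Agpat3, and HFD metformin libraries are the lowest for Acss2.

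Fatty acid synthase and its substrate follow. Mid1ip1, also called MIG12 or Spot 14-related protein, binds acetyl-CoA carboxylase and promotes its polymer form. It was a low gene, at 3.41, 3.02, 3.59 and 2.98 CPM in NCD control and at 4.92, 4.61, 6.18 and 4.55 CPM in NCD metformin. The HFD libraries had 4.53, 3.14, 3.10 and 2.79 CPM in control and 2.23, 3.99, 2.73 and 2.94 CPM with metformin. In CPM, NCD metformin was above every other library, by a narrow margin over HFD control 1. The TPM of Mid1ip1 was 45.4, 18.7, 64.8 and 28.1 in NCD metformin 1 to 4. It was 22.9, 27.9, 29.7 and 30.4 in NCD control 1 to 4, so these groups overlapped in TPM. The log2 fold change was 0.64 ± 0.18 for metformin on NCD (SE, adjusted p = 0.0376, edgeR) and -0.75 ± 0.18 for HFD within metformin (adjusted p = 0.0461). These calls were lost in 10 of 24 and 17 of 24 alternatives.

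Thrsp, the most abundant of the 38 genes per coding length, showed no called difference. It stood at 771, 1002, 546 and 855 CPM in NCD control and at 904, 907, 694 and 478 CPM in HFD control, and with metformin at 958, 621, 712 and 1029 CPM on NCD and at 946, 641, 664 and 795 CPM on HFD. All groups overlapped, and its 4 log2 fold changes lay between -0.12 and 0.07.

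Fasn, fatty acid synthase itself, ranged from 2805 to 5372 CPM in NCD control and from 3670 to 7821 CPM in NCD metformin. The NCD groups overlapped, and the log2 fold change of 0.63 ± 0.22 missed the threshold (SE, adjusted p = 0.0717, edgeR), although DESeq2 gave an adjusted p of 0.0269, and edgeR 0.0227 without NCD control 4 and 0.027 without NCD metformin 4. On HFD it ranged from 4406 to 5472 CPM in control and from 3464 to 5000 CPM in metformin libraries, with a log2 fold change of -0.16. Olah had 961 to 1372 CPM in NCD metformin against 735 to 1070 CPM in NCD control (0.28). Acacb, the carboxylase better known for making malonyl-CoA at the mitochondrion, had log2 fold changes between -0.06 and 0.32. In none of these genes did a comparison pass the test with edgeR.

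Acaca encodes acetyl-CoA carboxylase 1, which makes the malonyl-CoA that fatty acid synthase uses. Its means were 452 ± 117 CPM in NCD control and 534 ± 162 CPM in NCD metformin, against 636 ± 118 CPM in HFD control and 516 ± 65.2 CPM in HFD metformin libraries (SD, n = 4). None of its differences was called, the log2 fold change being 0.24 for metformin on NCD (adjusted p = 0.49, edgeR). The gene has several promoters, so its transcripts were also followed. Acaca-202, on chromosome 11 from 84173122 to 84401651 (GRCm38, plus strand), has 54 coding segments, 7038 coding bases and 2345 residues. It held 98.47% of the gene's estimated counts. Acaca-208, an internal fragment model, held 1.07% and Acaca-204, whose coding part starts upstream at 84130090, held 0.46%, while Acaca-203, Acaca-205 and Acaca-206 had 0. Shares of counts favour long transcripts. Of the gene's TPM, Acaca-202 held 65.7 to 87.7% over the libraries, Acaca-208 6.27 to 20.5% and Acaca-204 6.01 to 17.7%.

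The share of Acaca-202 in the gene's counts was 98.4, 98.6, 98.7 and 98.0% in NCD control 1 to 4 and 98.6, 98.9, 99.5 and 98.3% in NCD metformin 1 to 4. HFD control libraries had 98.5, 98.3, 98.0 and 98.1% and HFD metformin libraries 98.4, 98.9, 98.7 and 97.8%. The groups overlapped in all 4 comparisons. Differences of the means were 0.383 percentage points for metformin on NCD, 0.236 for metformin on HFD, -0.233 for diet without metformin and -0.38 for diet with metformin. By a 2-sided exact permutation test these gave p of 0.257, 0.429, 0.286 and 0.4, and 0.429 each after Benjamini-Hochberg adjustment over the 4. The smallest p that 4 against 4 libraries allow is 0.0286. Acaca-201 has the same 54 coding segments as Acaca-202 but another start and is not analysed here. Reads outside the coding part were not counted, so which of these starts was used could not be measured.

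Among the elongases Elovl1, which makes saturated and monounsaturated very long chains, was the one called. It had 39.8, 44.2, 38.7 and 51.3 CPM in NCD control, against 54.6, 65.7, 71.5 and 59.1 CPM in NCD metformin, without overlap. HFD control libraries had 52.7, 51.1, 52.4 and 47.2 CPM and HFD metformin libraries 58.2, 64.9, 62.5 and 48.2 CPM, where 3 of the 4 were above all controls. The log2 fold change was 0.53 ± 0.12 on NCD (SE, adjusted p = 0.0175, edgeR) and 0.36 ± 0.08 averaged over diets (adjusted p = 0.0139). The averaged call was lost in 0 of 23 alternatives, and the NCD call in 2 of 24, without NCD control 1 or NCD metformin 2.

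Elovl5, the main elongase here per coding length, lengthens polyunsaturated chains. It stood at 209, 188, 239 and 255 CPM in NCD control and at 300, 216, 255 and 291 CPM in HFD control, and with metformin at 334, 317, 277 and 233 CPM on NCD and at 381, 209, 234 and 210 CPM on HFD. All groups overlapped, and no comparison was called (0.38 for metformin on NCD, adjusted p = 0.189, edgeR). Elovl6 and Elovl7 were at 3.45 CPM or less and at 4.07 CPM or less in every library, and neither was called. Elovl7, at 2.06 to 2.84 CPM in NCD metformin and 2.85 to 4.07 CPM in HFD metformin, had the 2 groups just apart (log2 fold change 0.47, adjusted p = 0.1, edgeR).

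No desaturase was called by edgeR. Scd1, the stearoyl-CoA desaturase that makes oleate, had 249, 259, 378 and 350 CPM in NCD control, against 511, 451, 395 and 396 CPM in NCD metformin. On HFD, controls had 168, 178, 188 and 356 CPM and metformin libraries 309, 201, 252 and 252 CPM. NCD metformin was above all other libraries, and HFD control 4, the shallowest library, was well above the rest of its group. The log2 fold change was 0.51 ± 0.22 for metformin on NCD (SE, adjusted p = 0.141, edgeR) and -0.79 ± 0.22 for HFD within metformin (adjusted p = 0.0637). For diet averaged over treatments it was -0.63, and without HFD control 4 the value was -0.80 with an adjusted p of 0.00458 (edgeR). Without that library Scd1 was also called for metformin on NCD (adjusted p = 0.0415) and for HFD within metformin (adjusted p = 0.0247, edgeR). DESeq2's Wald test called Scd1 lower on HFD within metformin (adjusted p = 0.00911) and averaged over treatments (adjusted p = 0.00316).

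Scd2 ranged from 30.4 to 58.4 CPM in NCD metformin and from 15.1 to 20.1 CPM in HFD metformin, a log2 fold change of -1.27 ± 0.35 that missed the threshold (SE, adjusted p = 0.0632, edgeR). DESeq2 called Scd2 there (adjusted p = 0.0232) and for diet averaged over treatments (adjusted p = 0.0192), and edgeR called it within metformin without NCD control 1 or NCD control 4. In the controls it ranged from 11.9 to 52.4 CPM on NCD and 11.5 to 25.2 CPM on HFD. Fads1 and Fads2, the delta-5 and delta-6 desaturases of polyunsaturated chains, had log2 fold changes between -0.28 and 0.47 and between -0.27 and 0.31. Fads3 was at most 6.31 CPM. All 5 desaturases had a positive log2 fold change for metformin on NCD, with a median of 0.30.

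Of the transcription factors neither was called by edgeR. Srebf1, which encodes SREBP-1, had 71.0, 107, 75.5 and 136 CPM in NCD control, against 159, 234, 125 and 92.2 CPM in NCD metformin. The HFD libraries had 113, 84.4, 58.4 and 94.8 CPM in control and 116, 103, 104 and 115 CPM with metformin. Groups overlapped in each pair, and the log2 fold change for metformin on NCD was 0.65 ± 0.26 (SE, adjusted p = 0.113, edgeR). Averaged over diets DESeq2 called Srebf1 higher with metformin, at 0.49 (adjusted p = 0.0453), as edgeR did without NCD metformin 4 (adjusted p = 0.0451). Mlxipl, which encodes ChREBP, was at 3.18 to 3.31 CPM in 3 NCD control libraries and at 9.75 CPM in NCD control 3, the library with the highest adipocyte sum. Without that library its metformin effect on NCD was 1.04 ± 0.27 (SE, adjusted p = 0.0365, edgeR), and with it 0.47.

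Among the acyl-CoA synthetases Acsl1, by far the main one per coding length, was not called. It was at 560, 525, 499 and 459 CPM in NCD control and at 1046, 490, 634 and 851 CPM in HFD control, and with metformin at 916, 1179, 583 and 453 CPM on NCD and at 543, 362, 707 and 854 CPM on HFD. NCD control was tight and the other groups were spread by more than a factor of 2, and a log2 fold change of 0.62 ± 0.29 for metformin on NCD missed the threshold (SE, adjusted p = 0.184, edgeR).
Acsl4 had 5.31, 6.63, 13.3 and 9.01 CPM in NCD control, against 3.47, 1.77, 2.25 and 4.60 CPM in NCD metformin. HFD control libraries had 3.70, 3.84, 5.79 and 5.69 CPM and HFD metformin libraries 4.23, 1.87, 4.92 and 3.60 CPM. It fell with metformin on NCD by 1.49 ± 0.34 on the log2 scale (SE, adjusted p = 0.0182, edgeR), without overlap, the highest value being that of NCD control 3. Without NCD control 3 the value was -1.20 (adjusted p = 0.0435), and the call ended without NCD metformin 2 or NCD metformin 3. Acsl3 and Acsl5 were not called, Acsl5 ranging from 13.3 to 28.7 CPM over the libraries.

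The acyltransferases that build phosphatidate had 1 call in 6 genes. Agpat3 had 11.6, 7.90, 10 and 8.56 CPM in NCD control, against 5.49, 7.02, 5.38 and 5.16 CPM in NCD metformin. On HFD it had 7.70, 11.7, 8.64 and 12.2 CPM in control and 5.61, 6.88, 4.52 and 7.56 CPM in metformin libraries. Every metformin library was below every control library. The log2 fold change was -0.73 ± 0.18 on NCD (SE, adjusted p = 0.0255, edgeR), -0.69 ± 0.19 on HFD (adjusted p = 0.148) and -0.71 ± 0.13 averaged over diets (adjusted p = 0.00502).
This gene's value depends on which transcript took the reads. Its full-length model Agpat3-201 held 85.6 to 95.2% of its counts but 8.62 to 43.4% of its TPM, short fragment models holding the rest. In counts rebuilt from TPM the NCD value was 0.17 (adjusted p = 0.824) and the averaged one -0.32 (adjusted p = 0.49, edgeR).

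Gpat4, the main glycerol-3-phosphate acyltransferase here and an enzyme of the endoplasmic reticulum, was not called. It was at 176, 167, 141 and 129 CPM in NCD control and at 174, 132, 112 and 187 CPM in HFD control, and with metformin at 162, 178, 108 and 117 CPM on NCD and at 186, 141, 193 and 203 CPM on HFD. The groups overlapped in all comparisons. Gpam, the mitochondrial form, was at 23.3 to 24.4 CPM in NCD control and 8.96 to 22.2 CPM in NCD metformin, without overlap (log2 fold change -0.50 ± 0.21, SE, adjusted p = 0.145, edgeR). Gpat3 was low, at 0.403 to 3.56 CPM. Agpat1 had 33.1 to 59.2 CPM over the libraries and Agpat2, the form that adipocytes depend on, 7.65 to 24.9 CPM.

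Lpin1 encodes the main phosphatidate phosphatase here, which makes diacylglycerol. It had 288, 191, 269 and 156 CPM in NCD control, against 166, 146, 87.9 and 83.7 CPM in NCD metformin, overlapping through NCD metformin 1 and NCD control 4. On HFD, controls had 307, 136, 204 and 403 CPM and metformin libraries 349, 144, 216 and 315 CPM. It was not called, with a log2 fold change of -0.90 ± 0.34 for metformin on NCD (SE, adjusted p = 0.0949, edgeR) and 1.08 ± 0.34 for HFD within metformin (adjusted p = 0.0935). With a term for a gap in the numbers of the sample titles the second was called, at 1.27 (adjusted p = 0.0361, edgeR). Lpin2 was at most 2.18 CPM and Lpin3 at most 9.84 CPM, and neither was called.

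Lpin1 is spliced into 2 known forms that differ by 1 exon. Lpin1-202 encodes the longer form of 924 residues (lipin-1 beta) and Lpin1-204 the form of 891 residues (lipin-1 alpha), which lacks 33 residues of exon 6. That exon lies at chr12:16571164-16571262 on the minus strand of GRCm38 and is shown because it alone tells the pair apart, with all of its 99 bases in capitals.
Lpin1 exon 6: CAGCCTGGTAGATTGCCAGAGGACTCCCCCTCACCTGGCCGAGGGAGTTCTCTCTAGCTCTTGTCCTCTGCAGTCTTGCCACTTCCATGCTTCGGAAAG
The share of Lpin1-204 in the gene's counts was 22.5, 21, 24.2 and 26.9% in NCD control and 31.2, 45.2, 37.1 and 30.6% in NCD metformin. It was 24.5, 17.4, 27.0 and 29.0% in HFD control and 26.3, 27.4, 28.8 and 28.7% in HFD metformin. The 2 NCD groups did not overlap, and the HFD groups did. This gene's split was singled out after its values were seen, so no test is given. Acly-201 and Acly-203, which encode 1091 and 1101 residues, split the counts of Acly at 57.7 and 42.3%, with 32.9 to 48.2% for Acly-203 over the libraries and overlap between all groups.

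**Figure D4:**
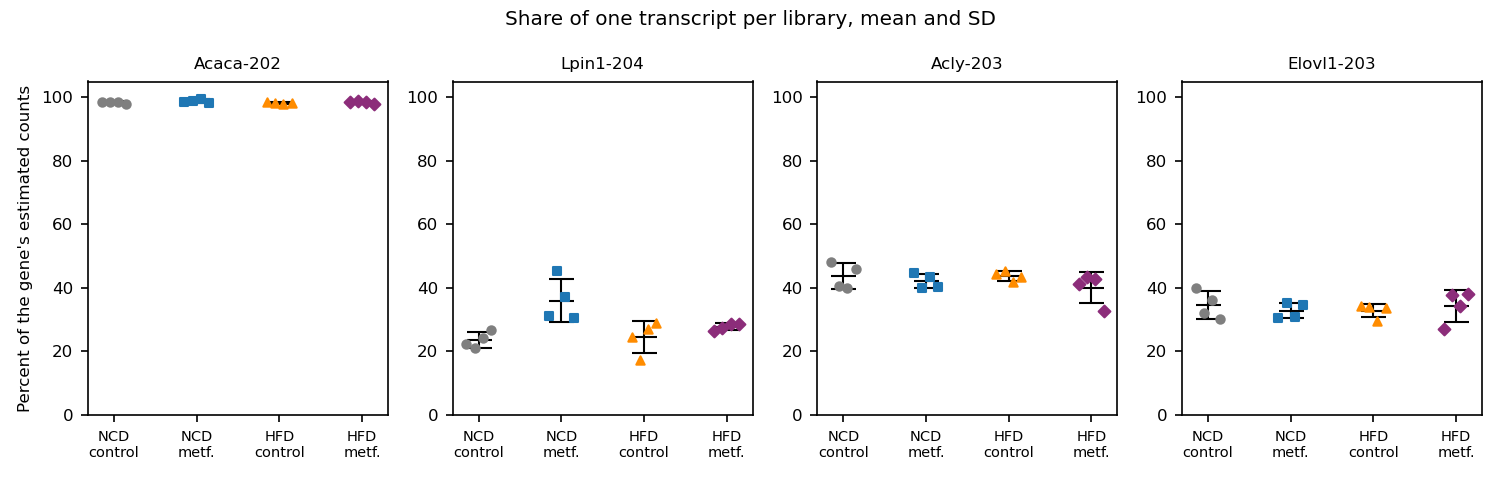
Percent of a gene's estimated counts given to 1 transcript, per library (points) with the mean and SD of each group of 4 (bars), on axes from 0. Acaca-202 lies near 98% in every library, and Lpin1-204 lies between 30.6 and 45.2% in NCD metformin against 21 to 26.9% in NCD control.

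The last step, from diacylglycerol to triglyceride, had no call by edgeR. Dgat1 had 38.9, 44.5, 49.5 and 36.0 CPM in NCD control, against 40.4, 40.0, 40.3 and 41.1 CPM in NCD metformin. The HFD libraries had 36.9, 39.2, 32.1 and 32.0 CPM in control and 35.2, 32.1, 34.4 and 32.5 CPM with metformin. The HFD metformin libraries were all below the NCD metformin ones (log2 fold change -0.27 ± 0.10, SE, adjusted p = 0.153, edgeR), and the control groups overlapped. For diet averaged over treatments DESeq2 called Dgat1 lower, at -0.27 (adjusted p = 0.0141).

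Dgat2, the isozyme abundant in fat cells, was at 2.45, 2.83, 27.6 and 4.48 CPM in NCD control and at 7.01, 21.2, 17.2 and 19 CPM in NCD metformin. NCD control 3 was 1 high library in an otherwise low group. With it the log2 fold change of metformin on NCD was 0.79 ± 0.67 (SE, adjusted p = 0.46, edgeR), and without it 2.30 ± 0.49 (adjusted p = 0.0201). Agpat2 behaved in the same manner, at 0.35 with that library and 0.81 without it (adjusted p = 0.0442, edgeR). Of the 38 genes 8 were in NCD control 3 at more than 2 times the median of the other NCD controls: Elovl3, Elovl6, Fads3, Mlxipl, Acsl4, Gpat3, Agpat2 and Dgat2. Elovl3, which was not tested, had 9 counts there. The share of all genes above that median by the same factor was not computed. Without NCD control 3 the count of calls for metformin on NCD was 8, with 6 higher and 2 lower, Agpat2, Dgat2 and Mlxipl having entered. Mid1ip1 (0.68, adjusted p = 0.0532) had left it, and Acly (0.56, adjusted p = 0.04997) stood just under the threshold, by edgeR. Over all genes 788 of 12636 were called without NCD control 3, against 1255 of 12506 in the main fit. Summed adipocyte markers in the other 3 NCD controls were 181 to 243 CPM, below all 4 NCD metformin libraries, and the part of these markers in the higher Dgat2, Agpat2 and Mlxipl was not tested.

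**Figure D5:**
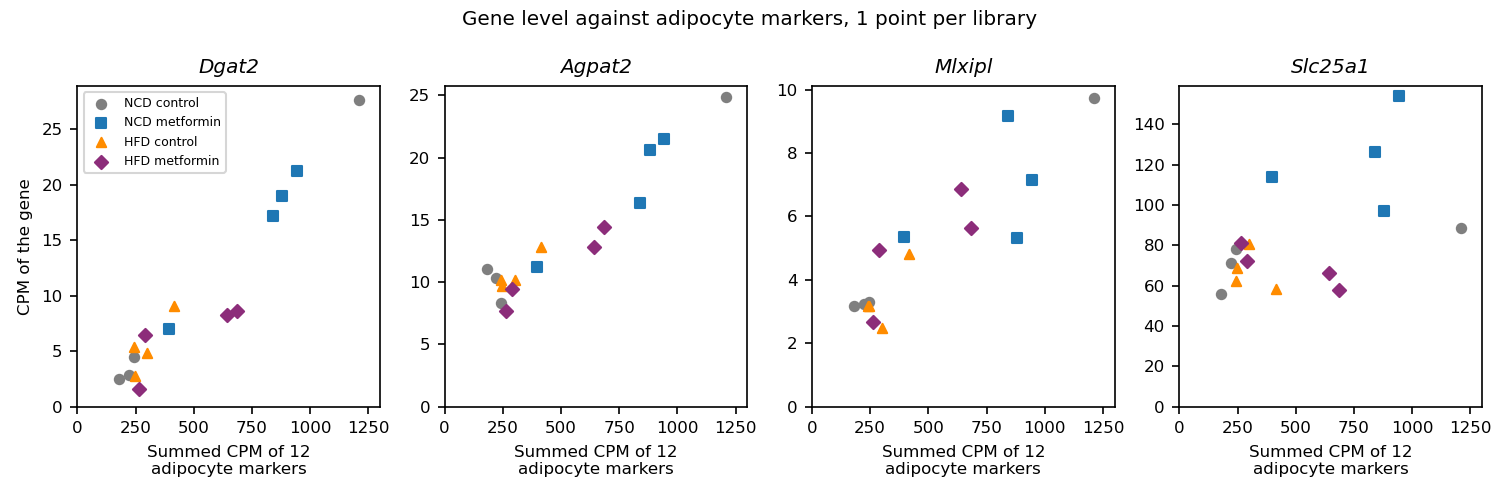
CPM of Dgat2, Agpat2, Mlxipl and Slc25a1 against the summed CPM of 12 adipocyte markers, 1 point a library and 1 symbol a group, on linear axes from 0. NCD control 3, at 1210 CPM of markers, is the highest point for Dgat2, Agpat2 and Mlxipl, while for Slc25a1 it stands at 88.6 CPM, below all 4 NCD metformin libraries.

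Further lists of neighbouring genes were read beside the 38. A list of 8 genes covered NADPH supply and related steps, NADPH being the reducing power for chain building. Of these, Pgd (6-phosphogluconate dehydrogenase) and Mthfd1 (a folate enzyme) were called lower on HFD within metformin, with log2 fold changes of -0.55 and -0.52 (edgeR). Pgd was at 137 ± 18.8 CPM in NCD metformin and 93.8 ± 6.95 CPM in HFD metformin (SD, n = 4). For diet averaged over treatments Pgd and the transketolase gene Tkt were lower (-0.46 and -0.41), where 0.936% of all genes were called in either direction. For both genes the 2 sets of 8 libraries did not overlap, and the share of all genes without such overlap was not computed. Metformin on NCD raised Mthfd1 by 0.69 on the log2 scale, and averaged over diets it raised Mthfd1 and the transaldolase gene Taldo1 (0.42 and 0.30). The list had 2 lower calls of 8 for diet with metformin beside a median of -0.37, where 0.504% of all genes were called lower. It had 1 higher call of 8 for metformin on NCD beside a median of 0.13, where 4.01% of all genes were called higher.

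The other lists held little. Of 10 genes of the elongation cycle and further elongases and desaturases 7 were tested and none was called in any comparison by edgeR, with medians between -0.05 and 0.04 in the 4 comparisons of 2 groups. Of 15 other acyltransferases and glycerolipid genes 13 were tested, and 1 call was made: Lclat1, a lysocardiolipin acyltransferase, was lower with metformin averaged over diets (-0.67). Of 14 genes that control SREBP, LXR and ChREBP all were tested, and 1 call was made: Rxra, the partner receptor of LXR, was lower with metformin averaged over diets (-0.32). In that averaged effect 11.4% of all genes were called in either direction. None of these 14 was called in a comparison of 2 groups.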

How the data were processed

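RNA from 16 mouse mammary gland libraries was quantified per transcript by the authors. The deposited files hold, per the file headers, an estimated count, a TPM value, a length and an effective length for each of 58204 transcripts. Salmon 1.3.0, DESeq2 1.28.1 and GRCm38.p6 are named without a role, per the submitters' processing notes, and the sources used here do not give strand or bias options. The deposited length equalled the coding length to within 3 bases for 56929 of 56929 transcripts of the same version in GENCODE M21, so reads outside coding parts were not measured. Estimated counts, as the authors deposited them, were summed to 22196 genes of GENCODE M21 on GRCm38 and rounded. The other 752 transcripts, with 0.165 to 0.218% of counts, had no match. Deposited TPM values were used to set genes side by side and in 1 alternative.

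The 2-sided quasi-likelihood test of edgeR 4.0.16, run in R 4.3.3, was applied in 1 fit of 4 group means over 16 libraries after filterByExpr and TMM scaling, which kept 12506 genes with 12 residual degrees of freedom. P-values were adjusted by Benjamini-Hochberg over all of these genes and called under 0.05. A background is the percent of all tested genes that meet the same criterion. Transcript shares were tested by exact permutation (scipy 1.17.1). The fitting code was tested on simulated counts. No pair of libraries agreed within sampling noise (lowest chi-square per degree of freedom 12.54 over 120 pairs). Alternatives were other scalings, DESeq2 1.42.0, no filter, only the groups compared, counts rebuilt from TPM, a term for a gap in title numbers between 10 and 14, and leaving out each library. Before that gap lay NCD control 1 to 3, NCD metformin 1 and 2, HFD control 1 and HFD metformin 1. The gap thus partly follows diet, and the term cannot fully separate the 2. Values per library are given for genes called in any comparison and for the gene with the highest mean TPM of each role, other genes by range, and list genes where called. The 38 genes, lists and tests were chosen with earlier results of these data known.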

Additional observations from a re-analysis of the deposited data

Results flagged for a closer look

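Each of 36 tested genes was checked in each of the 4 groups for 1 library set apart from the other 3, which makes 144 checks, of which chance flags about 1 in 20. In all 6 were found, 4 of them in NCD control 3. There Dgat2 was at 27.6 CPM against 2.45 to 4.48 CPM in the others, Mlxipl at 9.75 against 3.18 to 3.31, Gpat3 at 3.56 against 0.52 to 0.835, and Agpat2 at 24.9 against 8.35 to 11.1. The adipocyte sum was 1210 CPM in the same library, and its part in these 4 values was not tested. Scd1 was at 356 CPM in HFD control 4, the shallowest library, against 168 to 188 CPM in the others. Elovl5 was at 381 CPM in HFD metformin 1, the next shallowest, against 209 to 234 CPM.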

How the results depend on the processing

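The count of called genes for diet with metformin, 4 as reported, was 9 with scaling by library size only (all lower), 2 without a low-count filter and 2 in counts rebuilt from TPM. All genes had 641, 200 and 81 calls in these settings, against 295 in the main fit. For metformin on HFD it was 0, and 1 with DESeq2 (183 of 22196 over all genes, against 21 of 12506 in the main fit). For metformin averaged over diets it was 5, and 3 with library size only (1254 calls over all genes, against 1424 in the main fit). For diet averaged over treatments it was 1, and 10 with library size only, 6 with DESeq2 and 0 without a filter, in counts rebuilt from TPM or with the title-number term. Over all genes 1595, 461, 86, 43 and 90 were called in these settings, against 117 in the main fit. Library size only moved the median of all genes by diet to -0.16 without metformin, -0.18 with metformin and -0.17 averaged, and that of the 36 genes in the averaged effect to -0.28, so its lower calls are relative to that shift. The direction of the 16 called values reversed once, for Agpat3 with metformin on NCD (0.17 in counts rebuilt from TPM). Calls of single genes were lost 95 times and gained 50 times over 5937 alternative values, and 237 values that were not called changed sign. The causes were not tested. Leaving out 1 library at a time gave 1 to 8 called genes for metformin on NCD, 0 to 5 for diet with metformin, 2 to 7 for metformin averaged, 0 to 4 for diet averaged, and 0 for diet without metformin, metformin on HFD and the interaction. Calls over all genes in these fits ranged from 180 to 1461 for metformin on NCD and from 3 to 384 for diet with metformin. For Acaca, the differences in the share of Acaca-202 ranged from 0.172 to 0.552 percentage points for metformin on NCD, 0.073 to 0.449 for metformin on HFD, -0.368 to -0.137 for diet without metformin and -0.549 to -0.166 for diet with metformin, and 3 against 4 libraries allow no p under 0.0571. As shares of TPM, in which short transcripts weigh more, these differences were 5.94, 3.35, -2.70 and -5.28 percentage points, each with an adjusted p of 0.429 by the same exact permutation test. No paired analysis was possible because the labels carry no replicate numbers and tie no libraries across groups. The depth of 8649318 counts in HFD control 4 limits genes near 1 CPM, such as Gpat3 and Lpin2.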
